A study of Mus musculus with 16 samples.

Results

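Of the 10 genes described here, 8 encode tubulins, the building blocks of microtubules, and 2 encode the enzymes that remove and restore the last residue of α-tubulin. They were chosen by name, with earlier results of these data known. The set holds the 4 α-tubulin genes Tuba1a, Tuba1b, Tuba4a and Tuba8 and the 4 β-tubulin genes Tubb2a, Tubb2b, Tubb5 and Tubb6. It also holds the tubulin tyrosine ligase gene Ttl and the vasohibin gene Vash1. All 10 were found among the 22372 genes of the deposited expression table, and all 10 passed the filter on low values that left 13331 genes for testing. The RNA came from ventricle tissue of 16 mice of strain C57BL/6J in 4 groups of 4, and the labels put their age at the outset at 10 to 12 weeks. Sham-Veh mice had the chest surgery without constriction and received vehicle. TAC-Veh mice had transverse aortic constriction, a suture around the aortic arch that raises the pressure load on the left ventricle, and received vehicle. Sham-THZ1 and TAC-THZ1 mice had the same operations and received THZ1, a covalent inhibitor of the transcriptional kinases CDK7, CDK12 and CDK13. The labels give 10 mg/kg per intraperitoneal injection and 2 injections daily, begun on postoperative day 1 and ended on day 60. No group carried an engineered allele, and THZ1 was given systemically, so the groups do not separate a drug effect on heart muscle cells from one on other cells.

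Microtubules are hollow filaments of paired α- and β-tubulin, and mammals make several isotypes of each from separate genes. Most α-tubulin genes encode a protein that ends in tyrosine. Vasohibin 1, together with its small binding protein, cleaves this tyrosine off α-tubulin within microtubules, and tubulin tyrosine ligase puts it back on free tubulin. In heart muscle, detyrosinated microtubules couple to the sarcomere through desmin and resist its shortening, and a denser, more detyrosinated network is a known feature of the overloaded and failing heart. RNA levels do not report the detyrosination of the protein, which was not measured in these data.

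The ends of 3 of the α-tubulin coding sequences are shown because only some of them encode the residue that Vash1 removes and Ttl restores. The last 30 bases up to and including the stop codon, read from the NCBIM37 (mm9) genome and the GENCODE annotation, are printed 5′ to 3′ on the coding strand, with the last codon before the stop codon in capitals. The stretches lie at chr15:98762013-98762042 on the minus strand for Tuba1b, chr1:75212197-75212226 on the minus strand for Tuba4a and chr6:121176068-121176097 on the plus strand for Tuba8. Each lies in the last coding exon.
Tuba1b: gagggggaggaagaaggagaggagTACtaa
Tuba4a: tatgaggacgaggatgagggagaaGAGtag
Tuba8: gaagaagagaatgagggggaggaaTTTtaa
Tuba1b ends in a tyrosine codon. Tuba4a ends in a glutamate codon, so its gene product lacks the terminal tyrosine from the start, and Tuba8 ends in a phenylalanine codon. Tuba1a and Tuba1b were identical at 98.3% of their 1356 aligned coding bases, against 85.3% for Tuba1a and Tuba4a and 79.2% for Tuba1a and Tuba8.

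This likeness limits how well reads can be assigned. Of the 40-base windows along the annotated exons of Tuba1a, 22.9% occurred at a single place in the genome, and the share was 11.9% for Tuba1b, 42.5% for Tubb2a and 33.9% for Tubb2b. It was between 97.1% and 100% for Tuba4a, Tuba8, Tubb5, Tubb6, Ttl and Vash1. Reads were 40 bases long, so the level of Tuba1a, Tuba1b, Tubb2a and Tubb2b is uncertain, and how reads with several matches were treated is not given in the sources used here. Changes between groups of these 4 genes compare the same windows in every library, but these windows are partly shared. Of the Tuba1b windows 1064 of 1758 also occurred in another gene examined here, as did 754 of 1428 for Tubb2a. Whether reads from such windows entered the counts of several genes is not known. The changes of these 4 genes may therefore not be independent of each other, which was not tested.

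Libraries held between 21.4 and 35.8 M (mega) reads in protein-coding genes. The unit throughout is the normalized count, the read count of a gene divided by the size factor of its library. In these pieces of whole ventricle, fewer cells of a type and less RNA per cell cannot be told apart. The summed level of 8 cardiomyocyte markers, all detected, was high in every library. It ranged from 1426789 to 1527779 in Sham-Veh, from 789663 to 1127394 in TAC-Veh and from 1263851 to 1554637 in TAC-THZ1. The library TAC-THZ1 replicate 3 stood apart in the genes described here. It was the highest of its group in 8 of 8 tubulin genes and in 9 of the 10 genes, while it was the highest in 27.4% of all tested genes. Its tubulin values were a median of 0.95 log2 units above the mean of the other 3 TAC-THZ1 libraries, against 0.0018 over all genes. The library was picked out by these same tubulin values, so leaving it out was bound to lower the TAC-THZ1 tubulin means. Adjusted p-values of the tubulin genes without it are a description and no independent test. Comparisons of the 10 genes with TAC-THZ1 are given with and without it, and for other genes it is named where its removal changed a call. Its summed cardiomyocyte, fibroblast and macrophage marker levels (1411388, 39069 and 9963) lay inside the range of the other 3 libraries of its group, as did its endothelial and proliferation sums. Its mural marker sum of 19237 lay above the others at 18245 to 18287, and its neuron and Schwann cell marker sum of 97.6 lay below the others at 144 to 169. Its heart stress gene sum of 206736 was the highest of the group, with the next at 205269. Mitochondrial genes held 36.7% of its reads, against 41.8% to 44.7% in the other 3. The part of these differences in its tubulin values was not tested.

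Per kilobase of exon, the Tuba4a level in Sham-Veh was 5829 ± 658 normalized counts (SD, n = 4), the highest of the 10 genes. Tuba8 followed at 1445 ± 195, Tubb5 at 626 ± 45.5 and Tuba1a at 327 ± 47.7. Tubb6 was at 238 ± 30.6, Tubb2a at 182 ± 22.5 and Tuba1b at 179 ± 12.7. Libraries of Tuba1a and Tubb6 overlapped in this order, as did those of Tubb6 and Tubb2a and those of Tubb2a and Tuba1b. Both enzymes were lower, with Ttl at 123 ± 7.16 and Vash1 at 111 ± 11.7 per kilobase and overlapping libraries, and Tubb2b was the lowest at 20.8 ± 4.06. Tubb4b, a broadly expressed β-tubulin gene outside the 10, was at 1893 ± 170.1 per kilobase. For Tuba1a, Tuba1b, Tubb2a and Tubb2b, which have few unique windows, these levels and their places in the order are uncertain. So is the level of Tubb4b, with 50.9% unique windows. The choice of length matters most for Tuba1a and Tuba1b. In Sham-Veh, α-tubulin genes ending in a tyrosine codon held 7.61% of the summed α-tubulin level per kilobase of exon. Per kilobase of unique windows they held 30.1%.

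**Figure D1:**
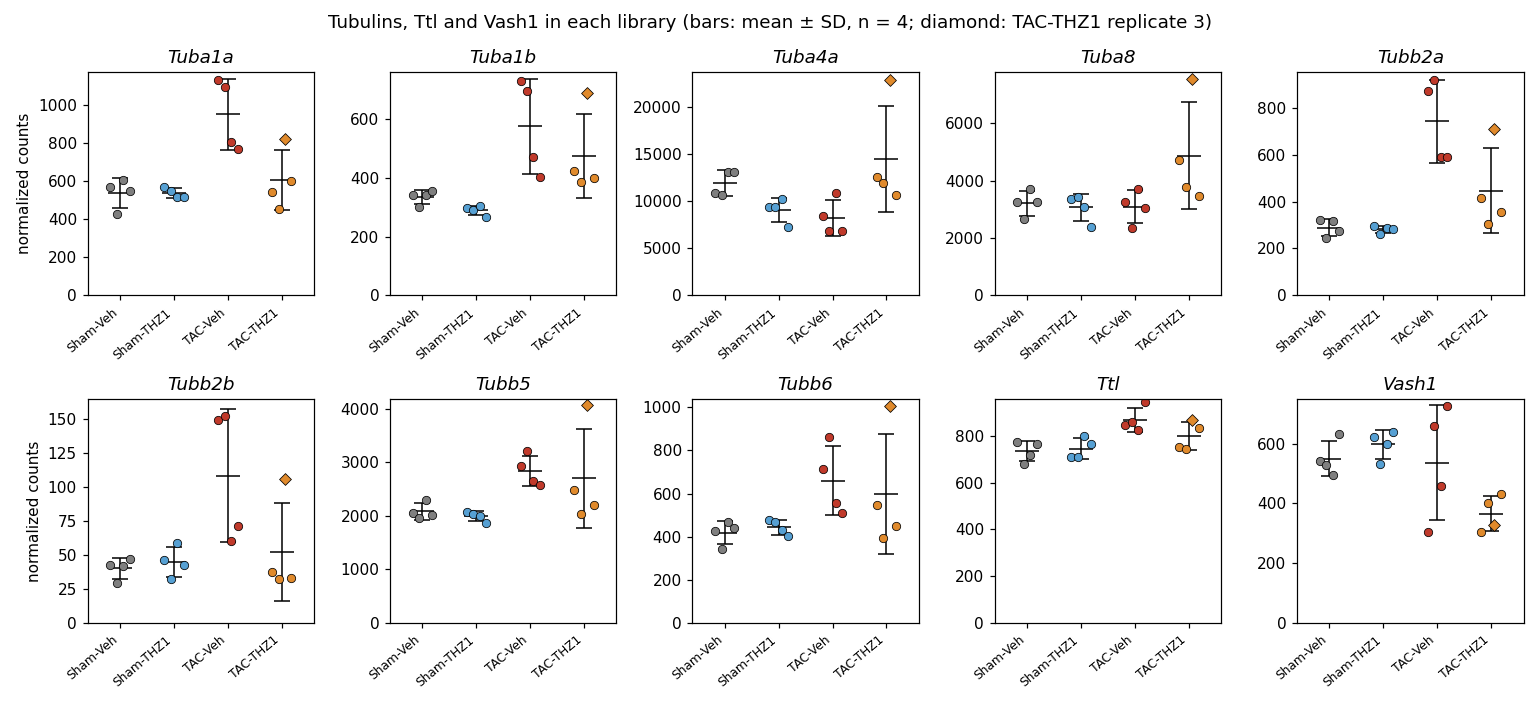
Normalized counts (linear axis from 0) of each gene in each of the 16 libraries, with 1 panel per gene and the mean ± SD (n = 4) of each group. Diamonds mark TAC-THZ1 replicate 3, which is the top TAC-THZ1 point for every gene but Vash1. The 4 TAC-Veh points lie above all Sham-Veh points for Tuba1a, Tuba1b, Tubb2a, Tubb2b, Tubb5, Tubb6 and Ttl.

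Most of the tubulin genes were higher after pressure overload, and the isotypes did not move as a block. By limma on log2(normalized count + 1), with p-values adjusted by Benjamini-Hochberg over 13331 genes and a call at an adjusted p under 0.05, 7 of the 10 genes were higher in TAC-Veh than in Sham-Veh and 1 was lower. Over all tested genes 21.4% were higher and 23.6% lower, 45.0% in all. The median log2 fold change was 0.54 over the 10 genes and -0.0030 over all genes. The 10 genes were chosen with earlier results of these data known, so their contrast with all genes is a description and no independent test. In 7 of the 10 genes the TAC-Veh values lay entirely above the Sham-Veh values, against 18.2% of all tested genes, and in 0 entirely below, against 19.1%. With a log2 fold change of at least 1 required as well, Tubb2a and Tubb2b remained, against 4.64% of all genes, and 0 members were at -1 or below, against 3.37%. The β-tubulins Tubb2a and Tubb2b changed most, the 2 tyrosine-ending α-tubulins and the other β-tubulins rose less, Tuba4a fell, and Tuba8 and Vash1 were not called.

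In sham-operated hearts no member passed the same test with THZ1 (0 of 10), where 0.0675% of all tested genes were called, 0.0225% higher and 0.0450% lower. None of the 10 had an unadjusted p under 0.05. edgeR and DESeq2 also called 0 of 10, against 0.0750% and 0.248% of all tested genes. With the 2 sham groups fitted alone, limma called 1 of 10, Tuba4a (-0.40, adjusted p = 0.031), against 3.49% of all tested genes. In banded hearts THZ1 was followed by 2 higher and 3 lower genes relative to TAC-Veh, against 15.1% higher and 14.2% lower over all tested genes, 29.4% in all. When these 2 groups were fitted alone, which estimates the spread from 8 libraries, 0 of 10 were called, against 10.5% of all tested genes. The adjusted p was then 0.052 for Tuba1a, 0.065 for Tuba4a, 0.12 for Tuba8, 0.076 for Tubb2a and 0.11 for Tubb2b. With limma's array weights, which give less weight to libraries far from their group, the calls of Tuba4a (0.65, adjusted p = 0.056), Tuba8 (0.48, adjusted p = 0.20) and Tubb2b (-1.15, adjusted p = 0.062) were lost and Vash1 (-0.55, adjusted p = 0.048) was called. At a log2 fold change of 0.89 or more in either direction 0 were higher and 1, Tubb2b, was lower, against 1.85% and 3.62%. Without TAC-THZ1 replicate 3 there were 1 higher and 6 lower, against 14.3% and 13.5%, 27.7% in all. None of the 10 genes had TAC-THZ1 values entirely above or below the TAC-Veh values with all 4 libraries, where 9.53% of all tested genes lay entirely above and 10.5% entirely below.

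**Figure D2:**
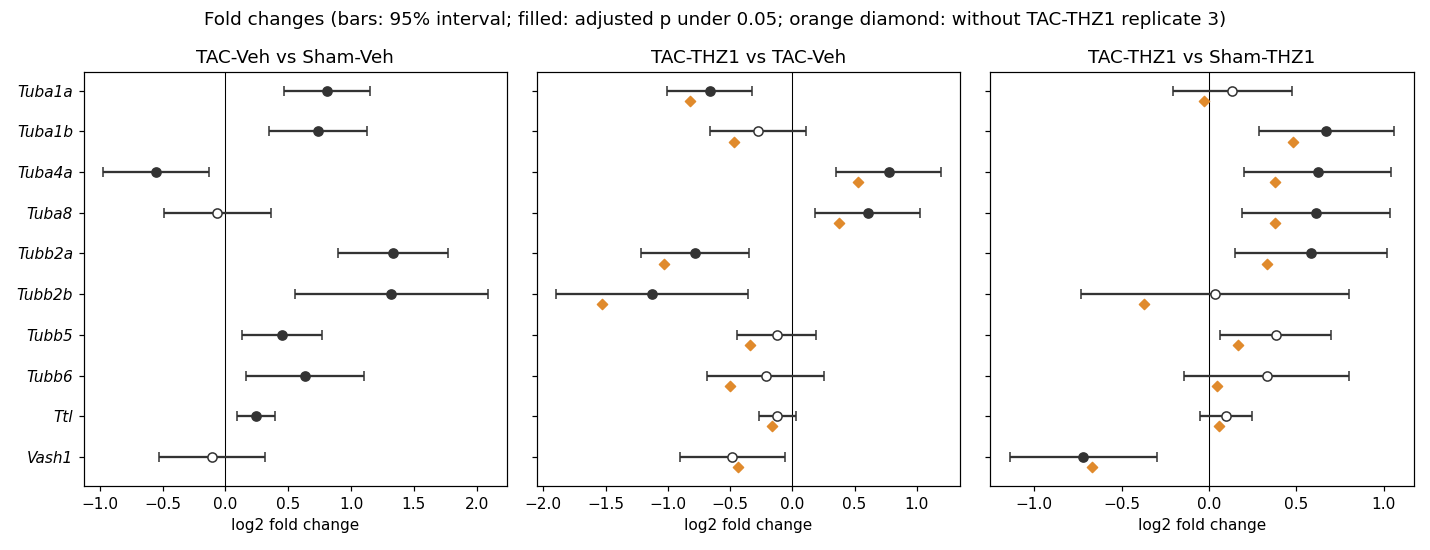
Log2 fold change of the 10 genes in 3 comparisons, with 95% intervals from limma. Filled points have an adjusted p under 0.05, and orange diamonds give the value without TAC-THZ1 replicate 3, which moves every tubulin downwards in the comparisons that hold TAC-THZ1.

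Tuba1a (chr15:98780272-98783982, minus strand) encodes a major α-tubulin of growing cells and nerve. Its normalized counts were 573, 427, 607 and 549 in Sham-Veh and 570.1, 551, 518 and 517 in Sham-THZ1. They were 1131, 1098, 808 and 773 in TAC-Veh and 543, 454, 825 and 601 in TAC-THZ1. The 4 TAC-Veh libraries lay above both sham groups, and 3 of the 4 TAC-THZ1 libraries lay below every TAC-Veh library. Tuba1a rose by 0.81 ± 0.16 log2 units (SE) with constriction (adjusted p = 0.00075, limma) and showed a log2 fold change of -0.67 ± 0.16 in TAC-THZ1 against TAC-Veh (adjusted p = 0.0061, limma). Without TAC-THZ1 replicate 3 the second value was -0.83 (adjusted p = 0.0012). TAC-THZ1 and Sham-THZ1 differed by 0.13 ± 0.16 (adjusted p = 0.57), and the sign of that difference turned to -0.026 without TAC-THZ1 replicate 3.

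Tuba1b (chr15:98761856-98764996, minus strand), a broadly expressed α-tubulin gene, held 342, 301, 342 and 356 in Sham-Veh and 297, 289.5, 305 and 266 in Sham-THZ1. Its values were 730.1, 696, 472 and 405 in TAC-Veh and 425, 387, 690.0 and 399 in TAC-THZ1. Both banded groups lay above both sham groups. Its log2 fold change with constriction was 0.74 ± 0.18 in vehicle-treated mice (adjusted p = 0.0039, limma) and 0.67 ± 0.18 in THZ1-treated mice (adjusted p = 0.016). Between TAC-THZ1 and TAC-Veh it changed by -0.27 ± 0.18 (adjusted p = 0.28), and -0.47 (adjusted p = 0.038) without TAC-THZ1 replicate 3.

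Tuba4a (chr1:75211549-75215828, minus strand), the most abundant member and the α-tubulin gene whose sequence ends in glutamate, went the other way. Sham-Veh libraries held 10889.9, 10709, 13113 and 13157, and Sham-THZ1 libraries 9407, 9353, 10240.1 and 7282. TAC-Veh libraries held 8482, 6829, 10875 and 6867, and TAC-THZ1 libraries 12553, 11960.2, 22945 and 10717. All 4 Sham-THZ1 libraries lay below all 4 Sham-Veh libraries, which held for 1 of the 10 genes and 5.05% of all tested genes (0 genes lay entirely above, against 6.29%), while TAC-THZ1 and TAC-Veh overlapped in 1 library each. The log2 fold change with constriction was -0.55 ± 0.20 (adjusted p = 0.032, limma). It missed the threshold without any 1 of 4 libraries, namely Sham-Veh replicates 3 and 4 (-0.51 each, adjusted p = 0.079 and 0.081) and TAC-Veh replicates 2 and 4 (-0.47 each, adjusted p = 0.091 and 0.079). With all libraries the call was also lost with quantile normalization (-0.49, adjusted p = 0.071) and with array weights (-0.54, adjusted p = 0.052). With THZ1 in banded hearts the change was 0.77 ± 0.20 (adjusted p = 0.0085), and 0.53 ± 0.15 (adjusted p = 0.017) without TAC-THZ1 replicate 3. In sham hearts THZ1 gave -0.40 ± 0.20 (unadjusted p = 0.059, adjusted p = 0.74). With the 2 sham groups fitted alone by limma it was called, at -0.40 ± 0.092 (adjusted p = 0.031).

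Tuba4a was also the 1 gene of the 10 whose THZ1 effect differed between banded and sham hearts, against 10.0% of all tested genes (4.40% positive and 5.62% negative). The interaction term was 1.18 ± 0.28 log2 units (adjusted p = 0.018, limma), and 0.94 ± 0.21 (adjusted p = 0.014) without TAC-THZ1 replicate 3. Without that library Tuba1a (-0.84, adjusted p = 0.019), Tubb2a (-0.999, adjusted p = 0.013) and Tubb2b (-1.69, adjusted p = 0.021) were also called, which made 4 of 10 against 10.3% of all tested genes (4.54% positive and 5.81% negative). With all libraries these 3 terms were -0.68, -0.75 and -1.28 (adjusted p = 0.069, 0.11 and 0.12). Other single libraries also added calls when left out, namely TAC-Veh replicate 3 for Tuba1a (-0.75, adjusted p = 0.038) and Tubb2b (-1.52, adjusted p = 0.048), TAC-Veh replicate 4 for Tuba1a (-0.77, adjusted p = 0.039) and TAC-Veh replicate 1 for Vash1 (-0.86, adjusted p = 0.015).

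Tuba8 (chr6:121160752-121176872, plus strand), a divergent α-tubulin gene known from heart and skeletal muscle and the testis, held 3245, 2651, 3706 and 3259 in Sham-Veh, and 3267, 2352, 3715 and 3037 in TAC-Veh. In TAC-THZ1 it held 4736, 3766, 7532 and 3452, of which 3 lay above every TAC-Veh library. Sham-THZ1 values ran from 2386 to 3431. Tuba8 showed no called change with constriction (-0.07 ± 0.20, 95% interval -0.49 to 0.36, adjusted p = 0.82, limma). It was 0.60 ± 0.20 log2 units higher in TAC-THZ1 than in TAC-Veh (adjusted p = 0.032). That call was lost without TAC-THZ1 replicate 3 (0.37, adjusted p = 0.097), TAC-THZ1 replicate 1 (0.59, adjusted p = 0.063), TAC-Veh replicate 2 (0.48, adjusted p = 0.11) or TAC-Veh replicate 4 (0.60, adjusted p = 0.051).

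Among the β-tubulins, Tubb2a (chr13:34166170-34169877, minus strand) showed the smallest adjusted p of the 10 genes with constriction. Its counts were 319, 246, 317 and 273 in Sham-Veh and 871, 917, 591 and 588 in TAC-Veh. The Sham-THZ1 values of 297, 262, 288 and 282 stayed within the range of Sham-Veh, and the TAC-THZ1 values were 417, 303, 708 and 356. The TAC-Veh libraries thus held at least 588, and 3 of the 4 TAC-THZ1 libraries held at most 417. The log2 fold change with constriction was 1.33 ± 0.21 (adjusted p = 8.5e-05, limma), 2.52-fold. In banded hearts THZ1 gave -0.78 ± 0.21 (adjusted p = 0.0099), and -1.03 ± 0.16 (adjusted p = 0.00051) without TAC-THZ1 replicate 3.

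Tubb2b (chr13:34218877-34222223, minus strand), which lies near Tubb2a on chromosome 13 and whose product is best known from nerve cells, was the least abundant member. Sham-Veh libraries held 42.4, 28.9, 41.6 and 47.1 normalized counts and TAC-Veh libraries 149, 152, 60.4 and 71.6. TAC-THZ1 libraries held 37.1, 31.8, 106 and 32.7, and Sham-THZ1 libraries 46.5, 32.0, 58.8 and 42.5. In TAC-THZ1 3 libraries were within the sham range and replicate 3 was 3.12 times their mean. The log2 fold change with constriction was 1.32 ± 0.36 (adjusted p = 0.0075, limma). TAC-THZ1 against TAC-Veh gave -1.13 ± 0.36 (adjusted p = 0.028), and -1.53 ± 0.30 (adjusted p = 0.0023) without TAC-THZ1 replicate 3. The call was lost without TAC-Veh replicate 1 (-0.94, adjusted p = 0.072), TAC-Veh replicate 2 (-0.93, adjusted p = 0.098), TAC-THZ1 replicate 1 (-1.04, adjusted p = 0.068), TAC-THZ1 replicate 2 (-0.97, adjusted p = 0.088) or TAC-THZ1 replicate 4 (-0.98, adjusted p = 0.078).

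Tubb5 (chr17:35970871-35975251, minus strand), a β-tubulin gene active in most cell types, held 2048, 1956, 2298 and 2013 in Sham-Veh and 2929.9, 3199, 2652 and 2581 in TAC-Veh. In TAC-THZ1 it held 2484, 2032, 4063 and 2204, so 3 of 4 libraries lay below every TAC-Veh library and the other lay above all of them. It rose by 0.45 ± 0.15 with constriction on the log2 scale (adjusted p = 0.024, limma). The call was lost without Sham-Veh replicate 2 (0.42, adjusted p = 0.060), Sham-Veh replicate 4 (0.43, adjusted p = 0.054) or TAC-Veh replicate 2 (0.39, adjusted p = 0.070). The difference of TAC-THZ1 from TAC-Veh was -0.13 ± 0.15 (adjusted p = 0.56) with replicate 3 and -0.34 ± 0.086 (adjusted p = 0.0088) without it.

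Tubb6, on chromosome 18, a divergent β-tubulin gene known from regenerating muscle and platelets, held 424, 343, 467 and 441 in Sham-Veh and 712, 861, 557 and 510.2 in TAC-Veh. TAC-THZ1 libraries held 546, 392, 1004 and 447. As for Tubb5, the library at 1004 was the highest of all 16. The log2 fold change with constriction was 0.63 ± 0.22 (adjusted p = 0.029, limma), lost without Sham-Veh replicate 2 (0.54, adjusted p = 0.089), TAC-Veh replicate 1 (0.59, adjusted p = 0.062) or TAC-Veh replicate 2 (0.50, adjusted p = 0.0996). For TAC-THZ1 against TAC-Veh it was -0.21 ± 0.22 (adjusted p = 0.50), and -0.50 ± 0.16 (adjusted p = 0.031) without TAC-THZ1 replicate 3.

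The enzyme genes were steadier or followed another course. Ttl (chr2:128891678-128922019, plus strand), the ligase that restores the tyrosine, held 772, 680.2, 721 and 764 in Sham-Veh and 848, 859, 827 and 945 in TAC-Veh. Sham-THZ1 libraries held 708, 709.5, 801 and 765, and TAC-THZ1 libraries 755, 742, 868 and 834. The TAC-Veh libraries lay above all Sham-Veh libraries, though by little. Ttl rose by 0.24 ± 0.070 log2 units, 1.18-fold (adjusted p = 0.010, limma). With THZ1 in banded hearts the change was -0.12 ± 0.070 (95% interval -0.27 to 0.027, adjusted p = 0.21), and -0.16 (adjusted p = 0.11) without TAC-THZ1 replicate 3.

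Vash1 (chr12:88019650-88036630, plus strand), whose product removes the tyrosine and was first described as an angiogenesis inhibitor of endothelial cells, held 543, 528, 494 and 631 in Sham-Veh and 623, 529.8, 599.7 and 638 in Sham-THZ1. TAC-Veh libraries held 302, 657, 458 and 724, and TAC-THZ1 libraries 305, 401, 327 and 429. The TAC-Veh group spread over the whole range of the other groups, while every TAC-THZ1 library lay below every sham library. Constriction gave -0.11 ± 0.20 in vehicle-treated mice (adjusted p = 0.68, limma) and 0.14 (adjusted p = 0.47) without TAC-Veh replicate 1, which reverses the sign. Between TAC-THZ1 and TAC-Veh it changed by -0.48 ± 0.20 (adjusted p = 0.079), by -0.44 (adjusted p = 0.15) without TAC-THZ1 replicate 3 and by -0.73 (adjusted p = 0.0019) without TAC-Veh replicate 1. On the recovered reads edgeR (-0.57, adjusted p = 0.039) and DESeq2 (-0.55, adjusted p = 0.023) called this difference. Against Sham-THZ1, TAC-THZ1 gave -0.72 ± 0.20 (adjusted p = 0.018), -0.64 (adjusted p = 0.058) without TAC-THZ1 replicate 1 and -0.67 (adjusted p = 0.045) without TAC-THZ1 replicate 3. The 8 endothelial markers summed to 24459 to 25966 in Sham-THZ1, 20239 to 25761 in TAC-Veh and 19047 to 21234 in TAC-THZ1, and their part in the Vash1 values was not tested.

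In THZ1-treated mice 4 genes were higher with constriction, namely Tuba1b, Tuba4a, Tuba8 and Tubb2a, and Vash1 was lower, against 11.4% and 12.8% of all tested genes, 24.2% in all. Values of these 4 genes lay entirely above those of Sham-THZ1 and Vash1 values entirely below, which held for 15.7% and 17.7% of all tested genes. Tubb2a was at 0.58 ± 0.21 log2 units (adjusted p = 0.049, limma), Tuba4a at 0.62 ± 0.20 (adjusted p = 0.032) and Tuba8 at 0.61 ± 0.20 (adjusted p = 0.037). Without TAC-THZ1 replicate 3 only Tuba1b remained higher (0.48, adjusted p = 0.046), with Vash1 lower, and the calls of Tubb2a, Tuba4a and Tuba8 were lost, at 0.33 (adjusted p = 0.15), 0.38 (adjusted p = 0.088) and 0.38 (adjusted p = 0.11). Over all tested genes 8.66% were then higher and 10.1% lower, 18.8% in all. Other single libraries also ended calls. Tubb2a lost its call without any 1 of the Sham-Veh libraries (0.58, adjusted p = 0.057 to 0.060), any 1 of the Sham-THZ1 libraries (0.55 to 0.61, adjusted p = 0.078 to 0.11) or TAC-THZ1 replicate 1 (0.59, adjusted p = 0.091). Tuba4a lost it without Sham-THZ1 replicate 1 (0.64, adjusted p = 0.057), 2 (0.64, adjusted p = 0.057) or 4 (0.52, adjusted p = 0.10) or TAC-THZ1 replicate 1 (0.67, adjusted p = 0.051). Tuba8 lost it without Sham-THZ1 replicate 1 (0.66, adjusted p = 0.052), 3 (0.62, adjusted p = 0.070) or 4 (0.50, adjusted p = 0.12) or TAC-THZ1 replicate 1 (0.60, adjusted p = 0.078). Tubb5, at 0.38 ± 0.15 (adjusted p = 0.075), was called without TAC-THZ1 replicate 2 (0.50, adjusted p = 0.025). The comparisons with TAC-Veh and with Sham-THZ1 share the TAC-THZ1 libraries.

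**Figure D3:**
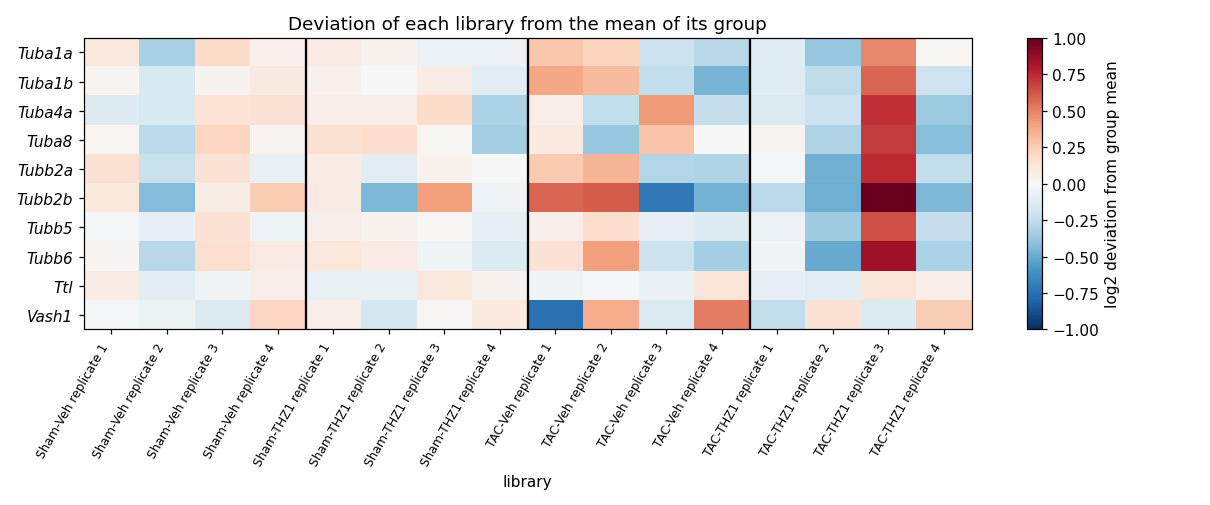
Log2 deviation of each library from the mean of its group for the 10 genes, on a color scale from -1 to 1. The column of TAC-THZ1 replicate 3 is red for all 8 tubulins, and in TAC-Veh replicates 1 and 2 are above and replicates 3 and 4 below the mean for Tuba1a, Tuba1b, Tubb2a and Tubb2b.

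Tubulin genes also deviated together within groups. After removal of the group means, Pearson's r over the 16 libraries was 0.95 for Tubb2a and Tubb6, 0.92 for Tubb2a and Tubb5 and 0.91 for Tuba4a and Tuba8. It was 0.50 for Tubb2a and Tuba4a, 0.35 for Tubb2a and Ttl and -0.33 for Tubb2a and Vash1. The points share their libraries, TAC-THZ1 replicate 3 among them, and these coefficients describe the libraries and carry no test. Sham-Veh replicate 2 was the lowest of its group in 8 of 8 tubulin genes and in 23.3% of all tested genes, with a median deviation of -0.33 log2 units from the mean of the other 3.

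The make-up of the α-tubulin RNA also varied between groups. The share of the summed α-tubulin level per kilobase of exon that came from genes ending in a tyrosine codon (Tuba1a, Tuba1b and Tuba1c, with Tuba3a and Tuba3b at trace level) was 7.61 ± 0.57% (SD, n = 4) in vehicle-treated and 9.21 ± 1.07% in THZ1-treated sham mice. It was 16.8 ± 4.31% in TAC-Veh against 7.71 ± 1.1% in TAC-THZ1, or 8.07 ± 1.01% (n = 3) without TAC-THZ1 replicate 3. TAC-Veh libraries ran from 11.6% to 21.7% and TAC-THZ1 libraries from 6.64% to 9.23%, without overlap and with replicate 3 the lowest. When levels were divided by the number of unique 40-base windows in place of exon length, the shares were 30.1 ± 1.61% for Sham-Veh, 34.0 ± 2.61% for Sham-THZ1, 50.4 ± 8.39% for TAC-Veh and 30.8 ± 2.95% for TAC-THZ1. The order of the groups was the same on both scales and the size of the share was not, so the share itself is uncertain while the TAC-Veh libraries, at 40.1% to 59.4%, lay above the TAC-THZ1 libraries, at 27.8% to 34.9%, on this scale too. TAC-THZ1 replicate 3, where all 8 tubulin members were high together, lay within the range of the other libraries of its group in the make-up of β-tubulin for Tubb2a (6.98%, others 6.61% to 7.19%). Its make-up was not the same throughout. Per kilobase of exon its tyrosine-ending share of 6.64% lay below the other libraries, at 7.34% to 9.23%. Its value was 1.55 times the mean of the other 3 libraries for Tuba1a and 3.12 times for Tubb2b. The shares are a description of genes chosen with these data known and were not tested.

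**Figure D4:**
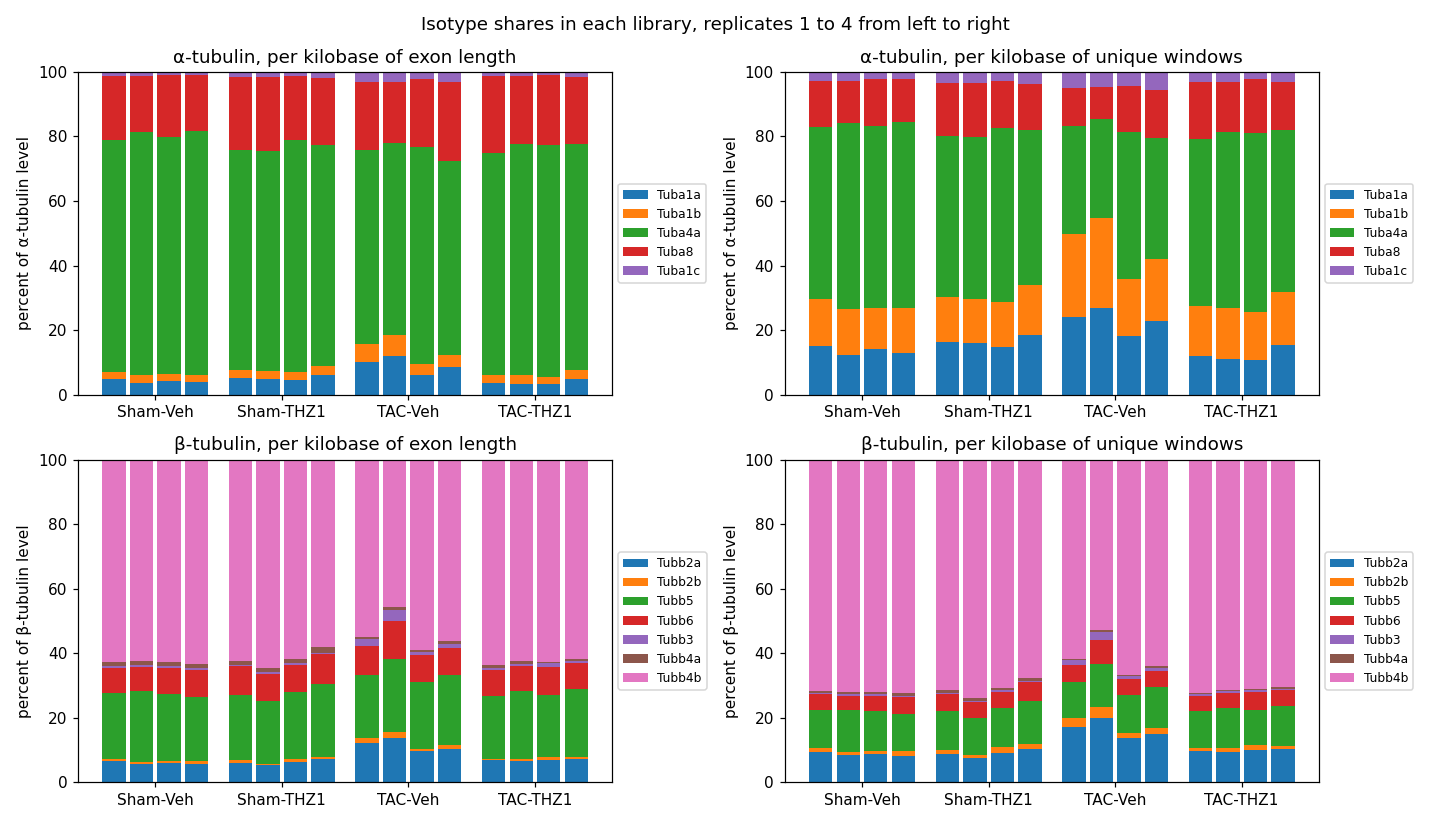
Percent of the summed α-tubulin level (upper panels) and β-tubulin level (lower panels) contributed by each gene in each library, with levels per kilobase of exon (left) or per kilobase of unique 40-base windows (right). Tuba1a and Tuba1b take a larger part of the bar, and Tubb2a a larger part of the lower bar, in TAC-Veh than in the other 3 groups.

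In the β family Tubb2a took 6.04 ± 0.41% of the level per kilobase of exon in vehicle-treated and 6.18 ± 0.77% in THZ1-treated sham hearts. Its share was 11.5 ± 1.80% in TAC-Veh, against 6.91 ± 0.24% in TAC-THZ1. Tubb5 took 20.8 ± 0.90% in Sham-Veh and 21.2 ± 1.44% in TAC-Veh, so its share did not move beyond the spread although its level rose. Tubb4b took 62.7 ± 0.31% in Sham-Veh and 53.8 ± 5.76% in TAC-Veh. Only 50.9% of the windows of Tubb4b were unique, so the size of these β-tubulin shares is uncertain too. The ratio of the Vash1 level to the Ttl level per kilobase of exon was 0.90 ± 0.078 for the Sham-Veh libraries and 0.96 ± 0.079 for those of Sham-THZ1. The banded groups had ratios of 0.73 ± 0.24 with vehicle and 0.55 ± 0.097 with THZ1, or 0.58 ± 0.087 (n = 3) without TAC-THZ1 replicate 3. The TAC-THZ1 libraries, at 0.45 to 0.65, lay below all sham libraries, at 0.82 to 1.05, and the TAC-Veh libraries ran from 0.43 to 0.92.

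The remaining genes of the tubulin cycle were taken from lists of the pathway. Their counts are to be read against all tested genes, of which 21.4% were higher and 23.6% lower with constriction and 15.1% higher and 14.2% lower in TAC-THZ1 than in TAC-Veh. Of the other tubulins 8 of 12 could be tested, and 3 were higher and 1 lower in TAC-Veh than in Sham-Veh, 4 of 8 against 45.0% of all tested genes. Tuba1c, the third tyrosine-ending α-tubulin gene, rose by 0.997 ± 0.11 log2 units (adjusted p = 4.1e-06, limma) and Tubb3, the β-tubulin of neurons, by 2.15 ± 0.39 (adjusted p = 0.00033). Tubg2, a γ-tubulin gene, rose by 0.77 ± 0.21 (adjusted p = 0.0070). Of the Tuba1c windows 33.6% were unique, so the limits given for Tuba1a and Tuba1b apply to its changes as well. In TAC-THZ1 against TAC-Veh, Tuba1c was at -0.53 ± 0.11 (adjusted p = 0.0024), Tubb3 at -1.38 ± 0.39 (adjusted p = 0.014) and Tubg1, which nucleates microtubules, at 0.40 ± 0.078 (adjusted p = 0.0016), with 2 higher and 2 lower in all.

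Svbp, which encodes the protein partner that vasohibins need, rose with constriction by 0.51 ± 0.13 (adjusted p = 0.0042, limma). It held 230.2, 242, 220.2 and 196 in Sham-Veh and 428, 299, 300.2 and 258 in TAC-Veh, without overlap, and TAC-THZ1 against TAC-Veh gave -0.16 ± 0.13 (adjusted p = 0.36). Vash2, the second vasohibin gene, fell by 1.36 on the log2 scale with constriction (adjusted p = 0.015), but no library held more than 17.9 normalized counts. TAC-THZ1 against TAC-Veh gave 1.05 ± 0.42 for Vash2 (adjusted p = 0.070).

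Among 13 testable genes that add or remove glutamate or glycine side chains on tubulin, 3 were higher and 3 lower with constriction, close to the 21.4% and 23.6% of all genes, and 3 higher and 1 lower in TAC-THZ1 than in TAC-Veh (15.1% and 14.2% of all genes). Without TAC-THZ1 replicate 3 the second pair was 2 and 1, since the deglutamylase gene Agbl2 (0.64, adjusted p = 0.038) went to 0.62 (adjusted p = 0.073). Ttll1, a polyglutamylase gene of the same family as Ttl, held 1102 to 1299.7 in Sham-Veh, 305 to 565 in TAC-Veh and 906 to 1285 in TAC-THZ1. Its log2 fold change was -1.53 ± 0.15 with constriction (adjusted p = 1.2e-06, limma) and 1.41 ± 0.15 in TAC-THZ1 against TAC-Veh (adjusted p = 2.9e-05). Agtpbp1, a deglutamylase gene, changed by -0.72 ± 0.079 and 0.32 ± 0.079 in these comparisons (adjusted p = 3.9e-06 and 0.0073), and Ttll7, a glutamylase gene, by 0.83 ± 0.14 and -0.64 ± 0.14 (adjusted p = 0.00021 and 0.0033). Of the 3 acetylation genes, Hdac6, the deacetylase, rose by 0.22 ± 0.068 with constriction (adjusted p = 0.016), while Atat1, the acetyltransferase, was at -0.0068 ± 0.14 (adjusted p = 0.97).

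Chaperones and cofactors that fold tubulin rose in 9 of 19 genes with constriction and fell in 0, against 21.4% and 23.6% of all tested genes. Examples were Cct8, a subunit of the chaperonin ring (0.34 ± 0.064, adjusted p = 0.00040, limma), and the tubulin cofactors Tbcb (0.40 ± 0.077, adjusted p = 0.00055) and Tbca (0.59 ± 0.12, adjusted p = 0.00070). In TAC-THZ1 against TAC-Veh 1 was higher and 3 were lower, no larger a share than the 15.1% and near the 14.2% of all genes, among them Cct8 at -0.24 ± 0.064 (adjusted p = 0.010) and the cofactor Tbcd at -0.30 ± 0.082 (adjusted p = 0.012), with the prefoldin subunit Pfdn6 at 0.39 ± 0.11 (adjusted p = 0.013). The median log2 fold change of the 19 was 0.17 with constriction and -0.017 in TAC-THZ1 against TAC-Veh.

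Of 23 microtubule-associated and end-binding genes, 4 were higher and 8 lower with constriction (21.4% and 23.6% of all genes), with Map6, which stabilizes microtubules against cold, at 1.17 ± 0.18 (adjusted p = 8.2e-05, limma) and Clasp2, a plus-end rescue factor, at -0.45 ± 0.064 (adjusted p = 4.4e-05). Mtus2 was at -0.64 ± 0.10 (adjusted p = 0.00013). In TAC-THZ1 against TAC-Veh 1 was higher and 5 lower (15.1% and 14.2% of all genes), with Map1b at -1.13 ± 0.17 (adjusted p = 0.00025), Map6 at -0.96 ± 0.18 (adjusted p = 0.0012) and Map1a at -0.96 ± 0.18 (adjusted p = 0.0013). Without TAC-THZ1 replicate 3 there were 1 and 4, since Map4 (-0.26, adjusted p = 0.018) went to -0.22 (adjusted p = 0.0502). Among 11 testable genes that destabilize or sever microtubules, 2 rose and 1 fell with constriction, each direction below the share over all genes. Fign, a severing enzyme gene, was at -1.80 ± 0.29 (adjusted p = 0.00012), Stmn2, a tubulin-sequestering stathmin gene, at 0.82 ± 0.13 (adjusted p = 0.00014) and Kif2c, a depolymerizing kinesin gene, at 1.24 ± 0.38 (adjusted p = 0.015). In TAC-THZ1 against TAC-Veh, Kif2c was at -1.56 ± 0.38 (adjusted p = 0.0064), Fign at 1.03 ± 0.29 (adjusted p = 0.014) and Kif18a, a kinesin of the mitotic spindle, at -0.66 ± 0.20 (adjusted p = 0.024), which became -0.55 (adjusted p = 0.067) without TAC-THZ1 replicate 3.

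Of 17 testable motor genes, 8 were higher and 3 lower with constriction, and 2 higher and 8 lower in TAC-THZ1 than in TAC-Veh, against 21.4% and 23.6% and then 15.1% and 14.2% of all tested genes. Without TAC-THZ1 replicate 3 the second pair was 1 and 8, since Kif1c (0.24, adjusted p = 0.047) was at 0.25 (adjusted p = 0.067). Kif5b, the kinesin-1 heavy chain gene of most cells, held 4007 to 4257 in Sham-Veh, 5526 to 6817 in TAC-Veh and 4129 to 4891 in TAC-THZ1, without overlap between TAC-Veh and the other 2. Its log2 fold change was 0.64 ± 0.068 with constriction (adjusted p = 3.1e-06, limma) and -0.53 ± 0.068 in TAC-THZ1 against TAC-Veh (adjusted p = 8.6e-05). The transport kinesin gene Kif1a was at 2.65 ± 0.28 and -2.27 ± 0.28 (adjusted p = 3.2e-06 and 7.8e-05). The dynein light intermediate chain gene Dync1li1 rose by 0.67 ± 0.085 with constriction (adjusted p = 1.4e-05), and Kif3b was at -0.35 ± 0.069 in TAC-THZ1 against TAC-Veh (adjusted p = 0.0018). TAC-THZ1 replicate 3, high in the tubulins, was inside the group's range for Kif5b at 4417.

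Markers of several cell types also differed between groups, and their counts are to be read against all tested genes. Of these 21.4% were higher and 23.6% lower with constriction, and 15.1% higher and 14.2% lower in TAC-THZ1 than in TAC-Veh. Of 8 fibroblast markers 6 rose with constriction and 6 were lower in TAC-THZ1 than in TAC-Veh, and their sum was 27975 to 31483 in Sham-Veh, 71681 to 157473 in TAC-Veh and 29924 to 42822 in TAC-THZ1. Of 8 cardiomyocyte markers 4 fell with constriction and 5 were higher in TAC-THZ1 than in TAC-Veh. Macrophage markers rose in 4 of 8 with constriction, and their sum was 5872 to 7020 in Sham-Veh and 8423 to 10449 in TAC-Veh. Proliferation markers rose in 2 of 8 and fell in 1, and 6 were lower and 1 higher in TAC-THZ1 than in TAC-Veh. Mural markers were called higher in 1 and lower in 3 of 8 with constriction, endothelial markers in 2 and 2 of 8, the latter close to the shares over all genes. Of the neuron and Schwann cell markers 3 of 8 passed the filter, and their sum of 8 was 222 to 262 in Sham-Veh and 82.3 to 117 in TAC-Veh, while Tubb3 rose. All 6 heart stress genes, which the overloaded ventricle is known to induce, rose with constriction and 5 were lower in TAC-THZ1 than in TAC-Veh, or 6 without TAC-THZ1 replicate 3, where Myh7 went from -0.95 (adjusted p = 0.14) to -1.37 (adjusted p = 0.031). The fibroblast, cardiomyocyte and proliferation counts in that comparison were the same without that library. The part of these cell types in the tubulin values was not tested.

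The genes whose log2 level most resembled a member over the 16 libraries were ranked among 10316 genes whose mean over libraries reached 100 normalized counts. For Tubb2a they were Cfl1, which encodes the actin-severing protein cofilin (Pearson's r = 0.98), Ywhaq, which encodes a 14-3-3 adaptor (0.98), Ptgis, which encodes prostacyclin synthase (0.97), Itgb1bp3 (0.97) and Ptpra, a receptor phosphatase gene (0.97). For Ttl they were Tspan9 (0.91), Aldh18a1 (0.87), Sorbs2 (0.87), Ckap4 (0.85) and Bin1 (0.85). For Vash1 they were Pxdn (0.93), Cbx6 (0.92), Nrp2 (0.92), Fscn1 (0.91) and Cd93 (0.91). All libraries of all groups enter these coefficients, so group differences shared by 2 genes are part of each.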

How the data were processed

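Ventricle RNA was sequenced after stranded mRNA library preparation, per the labels. Single-end reads of 40 bases were aligned by the authors to mm9 with TopHat2 2.1.1, counted per GENCODE gene with HTSeq on the reverse strand and divided by DESeq2 size factors. The deposited signal is this normalized count. Dividing each library by its smallest step gave whole reads for 100% of values (tolerance 0.001 reads), 21.4 to 35.8 M (mega) reads per library. Replicates are different mice, and intervals cover the spread between them.

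Genes with at least 10 normalized counts in 4 libraries (13331) were tested with limma 3.58.1 (R 4.3.3), eBayes with trend, on log2(normalized count + 1), in a single fit of 4 groups. Fold changes on this scale understate changes of low genes. P-values were adjusted by Benjamini-Hochberg over all tested genes. edgeR 4.0.16 and DESeq2 1.42.0 on the recovered reads were alternatives. They called 6067 and 6138 of 13331 genes in TAC-Veh against Sham-Veh and 3981 and 4170 in TAC-THZ1 against TAC-Veh. The fit was tested on simulated data. Replicate pairs differed beyond counting noise. The chi-square per degree of freedom was 3.06 to 7.82 within the sham groups and 10.7 to 98.3 within the banded groups. The shared spread therefore does not match the spread of each group. With only the compared groups fitted, the SE of Tubb2b in TAC-THZ1 against TAC-Veh was wider, at 0.43. That of Tuba4a in Sham-THZ1 against Sham-Veh was narrower, at 0.092. The 10 genes, the pathway and marker lists were chosen with earlier results of these data known. From each pathway list up to 3 genes with the smallest adjusted p in each of 2 comparisons were named, others stand as counts, and Tubb4b was named after its values were seen, as were Agbl2, Map4, Kif1c and Myh7. Likeness was ranked for Vash1, Ttl and the tubulin gene with the smallest adjusted p with constriction. The genes listed as Matcap1 and Matcap2 had no match. Sequences, positions and exon lengths came from NCBIM37, and the coding end of the fourth α-tubulin member is not reported here.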

Additional observations from a re-analysis of the deposited data

Results flagged for a closer look

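TAC-THZ1 replicate 3 was far from the other 3 libraries of its group in 3 genes, where its gap to the nearest library divided by the group's range passed Dixon's limit. The ratio was 0.875 for Tuba1b (690.0 against 387 to 425 normalized counts), 0.850 for Tuba4a (22945 against 10717 to 12553) and 0.928 for Tubb2b (106 against 31.8 to 37.1). Chance passes about 1 in 20 groups, and 3 of 40 groups were past the limit, all in this library.

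The THZ1 effect on Tuba4a differed between banded and sham hearts, with an interaction term of 1.18 log2 units (adjusted p = 0.018, limma). Tuba4a was at -0.40 in Sham-THZ1 against Sham-Veh (adjusted p = 0.74, limma) and at 0.77 in TAC-THZ1 against TAC-Veh. This was 1 of 10 genes, against 10.0% of all tested genes. Without TAC-THZ1 replicate 3, flagged above for Tuba4a, the interaction term was 0.94.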

How the results depend on the processing

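Counts of the 10 genes called, as TAC-Veh against Sham-Veh, TAC-THZ1 against TAC-Veh, Sham-THZ1 against Sham-Veh, TAC-THZ1 against Sham-THZ1 and the interaction, were 8, 5, 0, 5 and 1. Over all tested genes the shares were 45.0%, 29.4%, 0.0675%, 24.2% and 10.0%. With an adjusted p under 0.01 the counts were 4, 3, 0, 0 and 0, and the shares over all genes were not computed. With the fold threshold of the study's methods they were 2 higher and 1 lower for the first 2 comparisons, against 4.64% and 3.62% of all tested genes. With the groups compared alone TAC-THZ1 against TAC-Veh gave 0 and Sham-THZ1 against Sham-Veh 1 (Tuba4a), against 10.5% and 3.49% of all tested genes, and array weights gave 3 for TAC-THZ1 against TAC-Veh and 3 for the interaction, against 18.1% and 13.7%. Leaving out each library gave 5 (without TAC-Veh replicate 2) to 8, 3 (without TAC-Veh replicate 2 or TAC-THZ1 replicate 1) to 7 (without TAC-THZ1 replicate 3), 0 to 0, 1 (without TAC-THZ1 replicate 1) to 6 (without TAC-THZ1 replicate 2) and 1 to 4 (without TAC-THZ1 replicate 3). Without TAC-THZ1 replicate 3 the shares of all tested genes were 27.7% for TAC-THZ1 against TAC-Veh and 10.3% for the interaction. For the other left-out libraries they were not computed, so a loss of calls particular to the 10 genes cannot be told from a general one. The causes were not tested.

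Whether the replicate numbers pair the mice is not known. Correlations of deviations between same-numbered libraries ran from -0.43 to 0.16, and groups of 4 libraries are too small to decide it. With the replicate number as a block the counts were 8, 6, 0, 4 and 1, against 43.8%, 28.1%, 0.0525%, 22.8% and 8.51% of all tested genes, with Vash1 in TAC-THZ1 against TAC-Veh called (-0.48, adjusted p = 0.045) and Tubb2a in TAC-THZ1 against Sham-THZ1 lost (0.58, adjusted p = 0.052).

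Of 1390 fold changes of single genes under alternatives, 1290 kept direction and call, 54 lost and 20 gained a call, and 26 changed sign, none of them called. By setting, these were Tuba1a in Sham-THZ1 against Sham-Veh with quantile normalization (-0.0036) and edgeR (-0.0028), Tubb2b in TAC-THZ1 against Sham-THZ1 with quantile normalization (-0.030) and array weights (-0.095), and Vash1 in TAC-Veh against Sham-Veh with array weights (0.032). Leaving out each library in turn gave sign changes within these ranges. In Sham-THZ1 against Sham-Veh they were -0.097 to 0.073 for Tuba1a, -0.16 to 0.043 for Tuba8, -0.10 to 0.023 for Tubb2a, -0.0032 to 0.15 for Tubb6 and -0.013 to 0.048 for Ttl. In TAC-Veh against Sham-Veh they were -0.16 to 0.060 for Tuba8 and -0.28 to 0.14 for Vash1. In TAC-THZ1 against Sham-THZ1 they were -0.026 to 0.26 for Tuba1a and -0.37 to 0.20 for Tubb2b. In the interaction they were -0.26 to 0.065 for Tuba1b and -0.28 to 0.051 for Tubb5. Tubb2b had the lowest counts and the widest standard errors of the 10 genes.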
